A study of Mus musculus with 6 samples.

Results

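The immediate early transcription factors were described through 10 genes, Fos, Fosb, Jun, Junb, Egr1, Egr2, Egr3, Nr4a1, Atf3 and Ier2, of 19938 genes that the array annotation names from probe sets with a single symbol. The members were taken by symbol, each had 1 probe set, and all 10 passed the filter on dim probe sets that left 13632 genes for testing. Affymetrix mouse gene arrays were run on heart cells of mouse embryos at E12.5, 3 from Yap HET (Het) and 3 from Yap KO (KO) embryos, called HET 1 to 3 and KO 1 to 3 after their replicate numbers. All embryos came from matings of the TNTCre, Yap flox and R26 mTmG strains, so both groups carried a Cre driven by the cardiac troponin T promoter and a reporter that turns a cell green after Cre has acted. The controls were Yap heterozygotes, not wild-type embryos, and fluorescent cells were sorted after the hearts had been digested with enzymes. The design calls the replicates biological, and the sources used here do not give their litters or how many hearts went onto 1 array.

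Immediate early genes are transcribed within minutes of a stimulus, from promoters that already hold their activators, and need no new protein synthesis. Growth factors and stress reach them through MAP kinases, serum response factor (SRF) with its ternary complex and myocardin-related cofactors, and CREB. Their products are short-lived transcription factors: FOS and JUN proteins pair into AP-1, the EGR proteins are zinc finger factors, and NR4A1 is an orphan nuclear receptor. Enzymatic digestion and sorting of a tissue are known to induce these genes, and the sources used here do not give the digestion time of each heart.

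Yap1, the gene deleted in the Yap KO group, was read first as a check of the labels. Its intensity was 886, 927 and 871 on HET 1 to 3 and 103, 84.7 and 86.6 on KO 1 to 3, a log2 change of -3.29 ± 0.08 (SE; limma, Benjamini-Hochberg adjusted p = 2.70e-06). The groups matched their labels, and the sources used here do not place the probe set against the deleted exons. The cardiomyocyte marker Tnnt2, which encodes cardiac troponin T, had 8725 ± 112 in Yap HET and 8526 ± 180 (SD, n = 3) in Yap KO cells (limma adjusted p = 0.686). Array medians over all probe sets lay between 128.1 and 139.6, and array-to-array correlations across the tested genes, which are not replicates, were 0.992 to 0.996 within groups and 0.984 to 0.991 across them. All changes are Yap KO minus Yap HET on the log2 intensity scale, and adjusted p-values are from limma over 13632 genes.

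Of the 10 immediate early transcription factors, 5 were lower in Yap KO cells and 0 were higher, by falls of 1.21 to 1.47 fold. In the same test 4.76% of all genes were lower and 5.16% higher, 9.93% in all. Median centring of the arrays turned the 649 lower and 704 higher genes into 339 and 1055. The genes that fell were Nr4a1, Atf3, Egr2, Fos and Egr1. At an unadjusted limma p under 0.05, 8 members were lower and 0 higher, against 14.4% and 13.9% of all genes. Every member had a negative log2 change, as did 55.0% of all genes tested. The median change of the members was -0.27, and that of all tested genes was -0.02. On the Yap KO arrays, 7 members read below every Yap HET value, an ordering that 17.2% of all genes showed. The members were chosen with earlier results of these data known. The contrast with all genes is therefore a description and no test. Fewer cells with these transcripts and less RNA per cell cannot be told apart in such bulk samples.

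**Figure D1:**
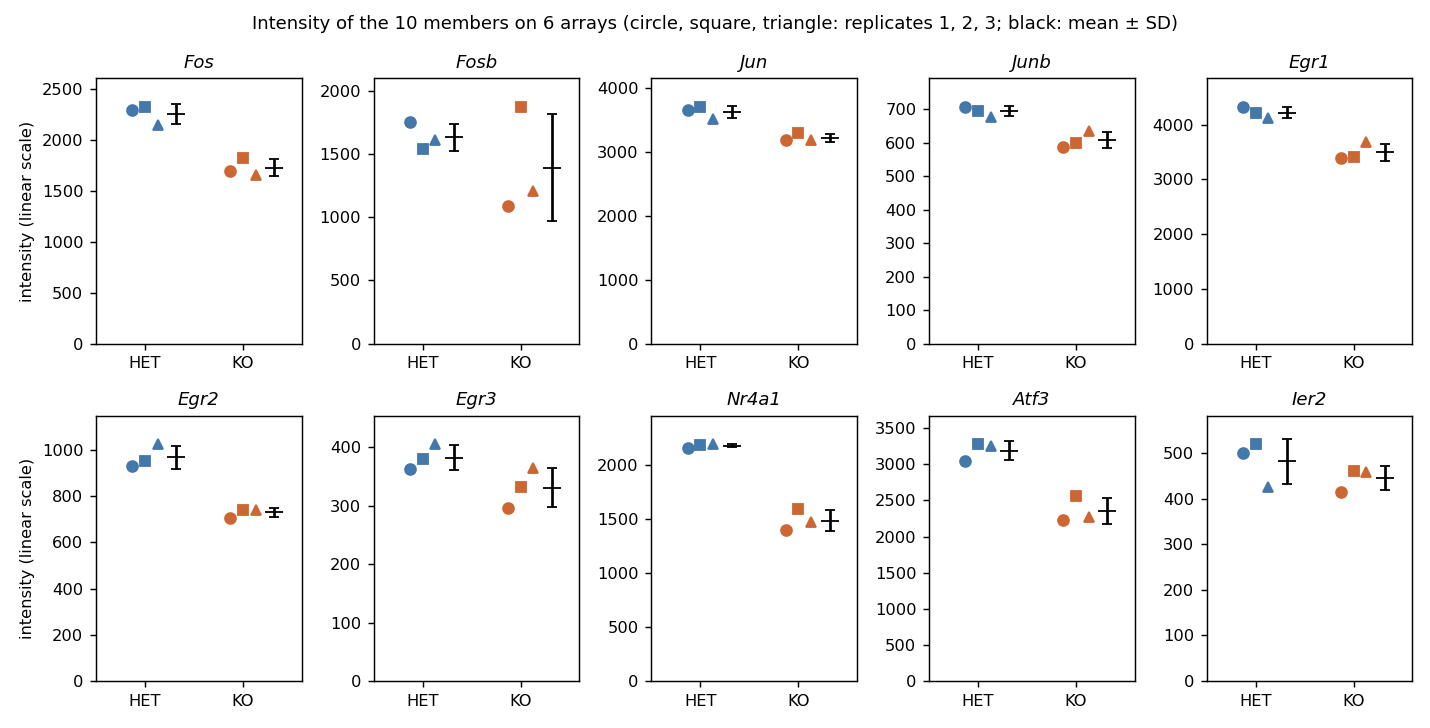
Intensity (linear scale, axes from 0) of each of the 10 members on the 3 Yap HET arrays (blue) and the 3 Yap KO arrays (orange), with circles, squares and triangles for replicates 1, 2 and 3 and the group mean ± SD in black. Nr4a1 falls from a mean of 2181 to 1486 with groups far apart, whereas the Yap KO values of Fosb run from 1091 to 1877, on both sides of the Yap HET values.

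Promoter sequences are shown for Fos, Nr4a1 and Egr2, a member each of the AP-1, nuclear receptor and zinc finger groups and among the 4 largest falls. They are the 250 bases before the annotated start in RefSeq on GRCm38.p6, whose table holds 7 of the 10 members (Fos, Fosb, Jun, Junb, Egr2, Nr4a1 and Atf3) with 11 windows of 300 bases. All are on the plus strand and written 5′ to 3′, with capitals marking matches to the searched motifs. Fos is at chr12:85473640-85473889, Nr4a1 at chr15:101266596-101266845 and Egr2 at chr10:67537316-67537565. A 30-base stretch at chr10:67537787-67537816 holds a second match of Egr2, before 3 other annotated starts.
Fos: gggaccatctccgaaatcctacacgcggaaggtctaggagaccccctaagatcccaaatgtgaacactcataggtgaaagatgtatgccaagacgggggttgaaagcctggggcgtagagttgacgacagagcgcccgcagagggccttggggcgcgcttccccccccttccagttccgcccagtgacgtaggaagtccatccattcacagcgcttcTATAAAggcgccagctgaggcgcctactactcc
Nr4a1: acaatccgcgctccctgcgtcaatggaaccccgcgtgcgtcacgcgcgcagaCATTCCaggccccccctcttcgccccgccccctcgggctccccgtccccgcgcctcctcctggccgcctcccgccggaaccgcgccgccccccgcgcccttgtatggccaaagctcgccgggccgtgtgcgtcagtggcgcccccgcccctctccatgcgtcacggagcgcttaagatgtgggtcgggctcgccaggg
Egr2: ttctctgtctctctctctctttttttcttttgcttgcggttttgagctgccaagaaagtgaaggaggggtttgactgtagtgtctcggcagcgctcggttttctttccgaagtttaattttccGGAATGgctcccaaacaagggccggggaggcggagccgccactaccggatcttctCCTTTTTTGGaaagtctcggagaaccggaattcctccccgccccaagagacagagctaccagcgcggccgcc
Egr2, second match: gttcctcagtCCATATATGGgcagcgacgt

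The CArG box, the sequence that SRF binds, was searched as CC, 6 of A or T, GG. Within these windows an exact match was found before 1 of the 7 members, Egr2, and in 1.63% of all 32851 promoter windows. Egr2 held CCTTTTTTGG with its first base 72 bases before 1 annotated start, and CCATATATGG with its first base 72, 73 and 133 bases before 3 others, so 4 of its 5 windows held a match. The TEAD site GGAATG, read by the TEAD factors that recruit YAP to DNA, matched before Egr2 (127 bases before the start) and, on the opposite strand, before Nr4a1 (198 bases). That motif occurred in 14.7% of all windows. The TATA box TATAAA lay 33 bases before the Fos start and at the start of Junb, and in 13.6% of all windows. The CRE TGACGTCA, the AP-1 site TGACTCA, the ETS site CCGGAAGT and the EGR site GCGTGGGCG, in 1.79%, 5.2%, 3.89% and 0.612% of all windows, had 0 matches in the windows of the 7 members. Both strands were searched for exact matches only, so near matches and sites outside the windows were not counted. A member without a match may therefore still have such a site. These letters are a description of short windows that says nothing of factor binding.

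Among the AP-1 genes, Fos fell and the other 3 did not pass the test. Fos, whose product pairs with JUN proteins, read 2289, 2324 and 2142 on HET 1 to 3 and 1695, 1819 and 1659 on KO 1 to 3. All Yap KO values lay below all Yap HET values. The log2 change was -0.385 ± 0.06 (SE), a 1.31-fold lower level (limma adjusted p = 0.00913), and its promoter is the first of those shown above.

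Fosb encodes the paralog of FOS that enters the same dimers. It read 1754, 1540 and 1611 on HET 1 to 3 and 1091, 1877 and 1212 on KO 1 to 3. The groups overlapped: KO 1 and KO 3 were the lowest of the 6 arrays and KO 2 the highest. The Yap KO SD of 423 was larger than the Yap HET SD of 109, and the log2 change was -0.27 ± 0.18 (limma adjusted p = 0.366). Without KO 2 the log2 change was -0.51 and the adjusted p 0.0308. Without KO 1 the change was -0.11 and the adjusted p 0.720.

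Jun, the core AP-1 partner, read 3650, 3706 and 3518 on HET 1 to 3 and 3190, 3292 and 3185 on KO 1 to 3. The groups did not overlap, but the log2 change of -0.17 ± 0.05 missed the threshold (limma adjusted p = 0.0680). Junb, a JUN paralog with weaker activating capacity, read 707, 695 and 677 and then 588, 599 and 635 in the same order of arrays. Here too the groups were separate, and the log2 change of -0.19 ± 0.05 missed the threshold (limma adjusted p = 0.0606). The 95% confidence intervals of both changes, -0.28 to -0.06 for Jun and -0.31 to -0.07 for Junb, lay below 0.

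All 3 EGR genes had lower means in Yap KO cells, and Egr2 and Egr1 passed the test. Egr2, also known as Krox20, is a zinc finger factor best known in hindbrain and Schwann cells. It read 931, 952 and 1026 on HET 1 to 3 and 708, 741 and 743 on KO 1 to 3. The groups were well apart, with a log2 change of -0.41 ± 0.06, a 1.33-fold lower level (limma adjusted p = 0.00633). Egr1, the family member most used as a readout of growth factor signals, read 4326, 4211 and 4131 on HET 1 to 3 and 3393, 3408 and 3675 on KO 1 to 3. The groups did not overlap, and the log2 change was -0.27 ± 0.05, a 1.21-fold lower level (limma adjusted p = 0.0211). This call ended without HET 1, KO 1 or KO 2, with adjusted p-values of 0.0918, 0.0540 and 0.0952. It also ended with median centring of the arrays (adjusted p = 0.0895) and with no filter (adjusted p = 0.0641).

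Egr3, a relative of Egr1 with the same type of DNA-binding domain, read 363, 380 and 406 on HET 1 to 3 and 297, 332 and 365 on KO 1 to 3. KO 3 lay just above the lowest Yap HET value, so the groups overlapped by that array. The log2 change was -0.21 ± 0.08 (limma adjusted p = 0.143).

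Nr4a1, which encodes the orphan nuclear receptor NUR77, had the largest log2 change of the 10 members. It read 2163, 2185 and 2194 on HET 1 to 3 and 1395, 1591 and 1471 on KO 1 to 3. The Yap HET values were nearly equal (SD 15.9), and the highest Yap KO value was far below them. The log2 change was -0.56 ± 0.06, a 1.47-fold lower level (limma adjusted p = 0.00283), which ranked Nr4a1 at 78 by p among all genes tested. The change lay between -0.61 and -0.51 whichever array was left out.

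Atf3, a bZIP factor induced by stress that pairs with JUN proteins and often represses its targets, read 3043, 3280 and 3252 on HET 1 to 3 and 2229, 2568 and 2265 on KO 1 to 3. KO 2 was the highest of its group and still below every Yap HET array. The log2 change was -0.44 ± 0.07, a 1.36-fold lower level (limma adjusted p = 0.00975). Ier2, a small nuclear protein gene of the immediate early class, read 501, 520 and 427 on HET 1 to 3 and 415, 462 and 459 on KO 1 to 3. The groups overlapped, since HET 3 lay below KO 2 and KO 3. Its log2 change of -0.11 ± 0.08 was the smallest of the members (limma adjusted p = 0.421).

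**Figure D2:**
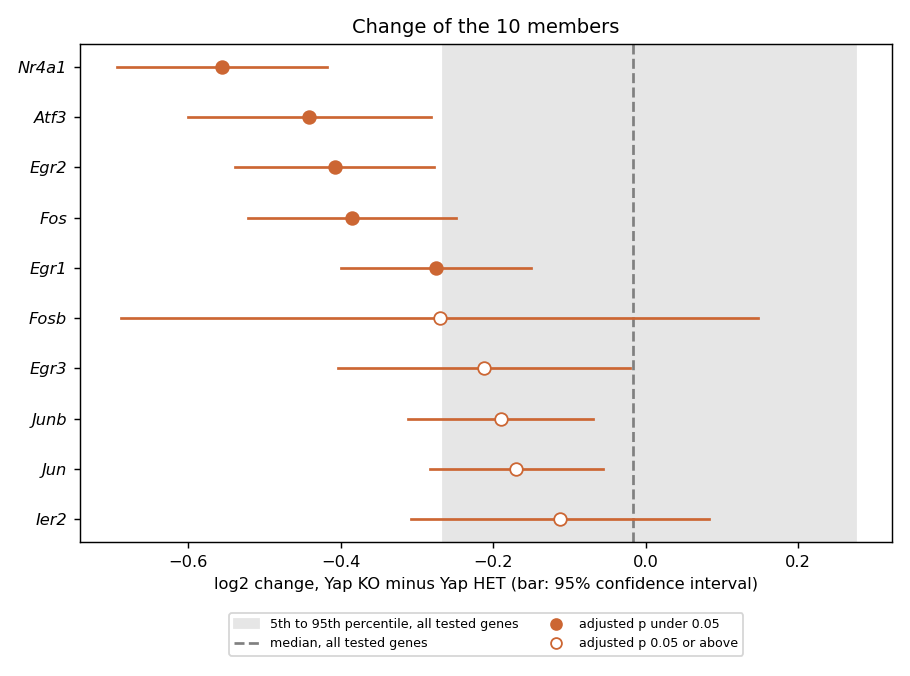
Log2 change (Yap KO minus Yap HET) of each member with its 95% confidence interval from limma, filled where the adjusted p was under 0.05, over the range from the 5th to the 95th percentile of all tested genes (grey). The 5 filled genes run from -0.27 for Egr1 to -0.56 for Nr4a1, and the intervals of Fosb and Ier2 cross 0.

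The arrays of a group were not alike in these genes. Centred on its own mean over the 6 arrays, the average member stood at 0.16, 0.16 and 0.13 on HET 1, 2 and 3. On KO 1, 2 and 3 it stood at -0.24, -0.07 and -0.15 on the log2 scale. By this mean KO 2 was the nearest to the Yap HET arrays, but much of its lead came from Fosb: over the other 9 members the means were -0.22, -0.11 and -0.13. Of the Yap KO arrays, KO 2 was the highest for 6 members and KO 3 for 4, Junb and the 3 EGR genes. On KO 2 Fosb stood at 0.34, above its level on every other array, while Fos, Nr4a1 and Atf3 stood at -0.11, -0.18 and -0.09. Egr1 stood at -0.18, -0.17 and -0.06 on KO 1, 2 and 3, Egr3 at -0.26, -0.10 and 0.04, and Junb at -0.14, -0.11 and -0.03. Egr2, at -0.25, -0.18 and -0.18, was nearly equal on KO 2 and KO 3.

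**Figure D3:**
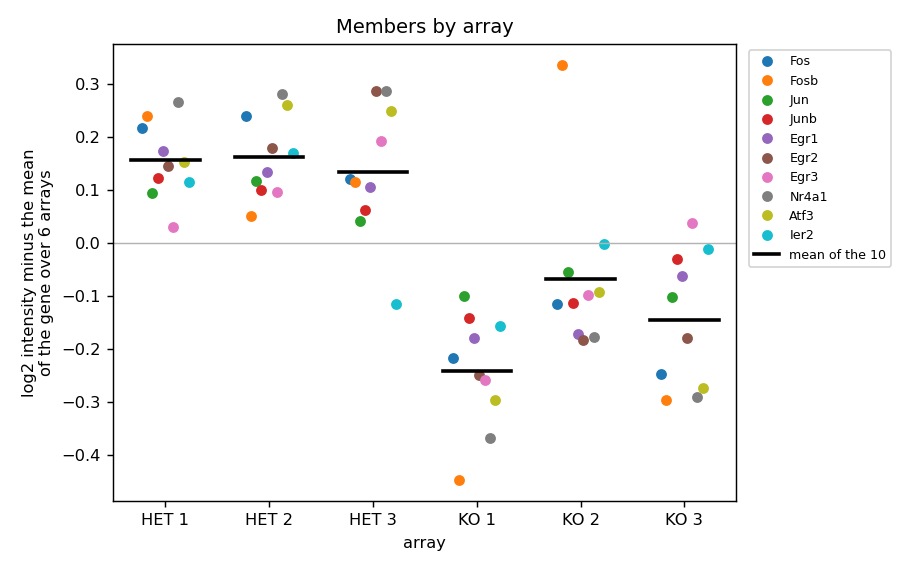
Log2 intensity of each member minus its mean over the 6 arrays, by array, with the mean of the 10 members as a black line. The lines are at 0.13 to 0.16 for Yap HET and at -0.24, -0.07 and -0.15 for Yap KO, and Fosb on KO 2 is the point at 0.34.

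Whether paralogs fell by different amounts was tested on the log2 ratio of the pair within each array, in 5 pairs, by two-sided exact permutation over the arrays, for which 0.1 is the smallest p that 3 arrays against 3 allow. The change of Egr3 was 0.20 above that of Egr2 (95% interval 0.01 to 0.38, exact permutation p = 0.1, adjusted p = 0.5), with a higher ratio on all 3 Yap KO arrays. Egr2 changed by -0.13 relative to Egr1 (interval -0.32 to 0.06, exact permutation p = 0.2, adjusted p = 0.5). Egr3 against Egr1 gave 0.06 (interval -0.18 to 0.30) and Fosb against Fos 0.11 (interval -0.48 to 0.71), with exact permutation p-values of 0.6 and 0.9. Junb and Jun differed by -0.02 (interval -0.14 to 0.10, exact permutation p = 0.8), the narrowest interval of the 5 pairs. The adjusted p of these last 3 pairs was 0.9.

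Leaving out each array in turn kept all 10 changes negative. Nr4a1, Atf3, Egr2 and Fos stayed past the threshold in all 6 cases, with adjusted p-values of at most 0.0183, 0.0379, 0.0321 and 0.0478. Among all tested genes, 1.51% (without HET 1) to 4.38% (without KO 1) were lower in these cases. The count of members that fell was 4 or 5. Without KO 2 it was 5, with Fosb past the threshold and Egr1 no longer past it. Jun, Junb, Egr3 and Ier2 passed in 0 of the 6 cases.

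**Figure D4:**
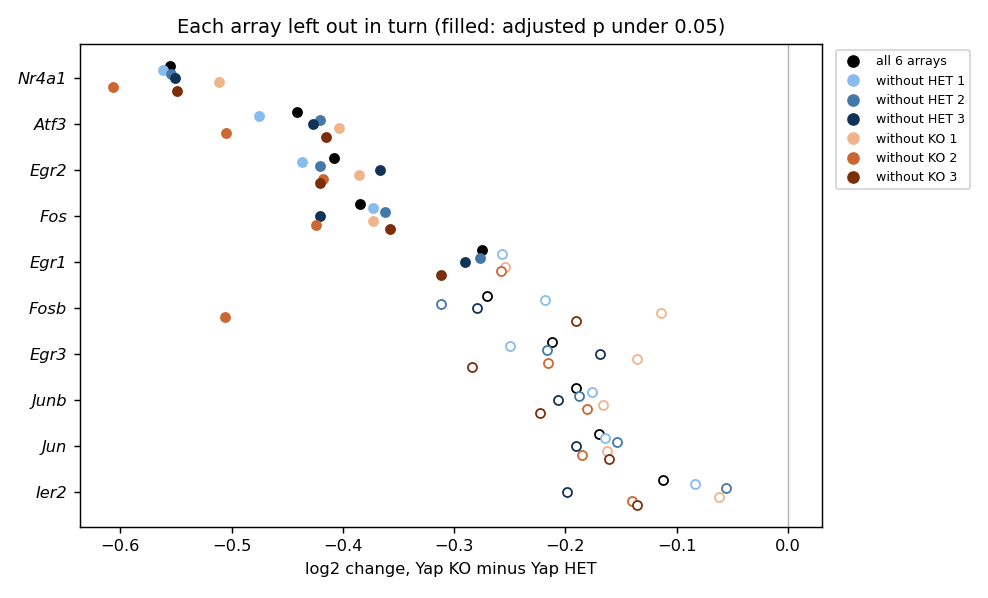
Log2 change of each member with all 6 arrays (black) and with each array left out in turn (colours), filled where the limma adjusted p was under 0.05. Nr4a1, Atf3, Egr2 and Fos are filled throughout, Egr1 in part, and Fosb lies between -0.51 and -0.11 depending on which Yap KO array is absent.

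Among 5 other EGR and NR4A members and NAB corepressors, Nr4a3, a close paralog of Nr4a1, fell, and 0 rose, against 4.76% and 5.16% of all genes, with 2 lower and 0 higher before adjustment (limma, unadjusted p under 0.05). Nr4a3 read 369, 423 and 375 on HET 1 to 3 and 252, 276 and 282 on KO 1 to 3, with no overlap. Its log2 change was -0.53 ± 0.07 (limma adjusted p = 0.00618). Nr4a2, the third receptor of that family, had separate groups as well, but its log2 change of -0.22 ± 0.07 did not pass (limma adjusted p = 0.0820). Egr4 had -0.23 ± 0.12 (adjusted p = 0.246) and the EGR corepressor gene Nab2 0.07 ± 0.06 (adjusted p = 0.511).

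Of 17 tested AP-1 and related bZIP partners, 2 fell and 0 rose, with 5 lower and 1 higher before adjustment (limma, unadjusted p under 0.05). Over all genes the shares were 4.76% and 5.16%, and 14.4% and 13.9% before adjustment. Jdp2, a bZIP repressor of AP-1, read 393, 409 and 395 on HET 1 to 3 and 305, 315 and 311 on KO 1 to 3, a log2 change of -0.36 ± 0.05 (limma adjusted p = 0.00531). Fosl2, which encodes the FOS relative FRA2, had -0.21 ± 0.05 (adjusted p = 0.0453). The small MAF gene Maff (-0.24 ± 0.07), Creb5 (-0.25 ± 0.07) and Crem, a cyclic AMP responsive factor (0.27 ± 0.08), had adjusted p-values of 0.0574, 0.0688 and 0.0767. The median of the list was -0.06. Dropping any array except KO 1 left 1 of the 2 falls, and 1 gene rose when HET 2 was dropped.

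Other immediate early and delayed early genes moved both ways. Of 41 tested, 4 fell and 3 rose, against 4.76% and 5.16% of all genes, and the median was -0.02, close to that of all genes. The falls were in Ccn1, a matricellular gene also listed as a YAP target (-0.69 ± 0.11), the kinase gene Pim1 (-0.40 ± 0.08), Csrnp1, a nuclear factor gene (-0.35 ± 0.07), and the mRNA decay factor gene Zfp36l2 (-0.27 ± 0.06). Klf9, a Krüppel-like factor gene (0.39 ± 0.06), Myc, the growth regulator (0.30 ± 0.05), and Phlda1 (0.25 ± 0.05) rose. Their adjusted p was 0.0348 or less. Errfi1 (0.22 ± 0.06), whose adjusted p rounds to 0.05, the antiproliferative gene Btg2 (-0.21 ± 0.05, adjusted p = 0.0514) and Plk3 (-0.25 ± 0.07, adjusted p = 0.0518) just missed the threshold. Of the 4 falls, 2 were left when HET 1 or KO 1 was dropped and 1 when HET 3 or KO 2 was dropped.

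Feedback inhibitors of the MAP kinases, themselves induced by growth factor signals, moved both ways, more often up than down. Of 16 dual specificity phosphatase, Sprouty and Spred genes, 4 rose and 1 fell, against 5.16% and 4.76% of all genes, and the median was 0.04. Before adjustment 7 were higher and 2 lower (limma, unadjusted p under 0.05), against 13.9% and 14.4% of all genes. The change was positive in 11 of the 16 and negative in 5. Dusp4, an ERK phosphatase gene, read 196, 220 and 185 on HET 1 to 3 and 424, 434 and 330 on KO 1 to 3, a log2 change of 0.98 ± 0.11 and a 1.97-fold higher level (limma adjusted p = 0.00367). Spry4 rose by 0.41 ± 0.05, Spred1 by 0.30 ± 0.05 and Spry2 by 0.23 ± 0.05, and Dusp9 fell by 0.53 on the log2 scale. Dusp1, a phosphatase gene that is itself of the immediate early class, had -0.32 ± 0.085 with separate groups but did not pass (limma adjusted p = 0.0567). Spred2 (0.20 ± 0.06) and Spry1 (0.23 ± 0.07) had adjusted p-values of 0.0709 and 0.0735. Dropping HET 1 left 2 of the 4 rises.

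Among the factors that act upstream, 23 of 32 listed genes had a probe set with a single symbol. Of these, 2 rose and 1 fell, near the 5.16% and 4.76% of all genes: Elk3, a ternary complex factor gene (0.38 ± 0.07), and the ERK kinase gene Map2k1 (0.25 ± 0.06) rose, and Rps6ka5, the gene of the kinase MSK1 (-0.21 ± 0.05), fell. The limma adjusted p-values were 0.0162, 0.0459 and 0.0315. Before adjustment 7 of the 23 were lower and 3 higher (limma, unadjusted p under 0.05), against 14.4% and 13.9% of all genes. Braf (-0.22 ± 0.06), Map2k3 (-0.25 ± 0.07) and Mapk9 (0.16 ± 0.05) did not pass (adjusted p = 0.0545, 0.0658 and 0.0861). No fall was called when any array was dropped, and of the 2 rises 1 was left when HET 1, HET 3 or KO 1 was dropped and 0 when KO 2 or KO 3 was dropped.

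Cytoskeletal genes listed as targets of SRF and MRTF also moved both ways. Of 21 tested, 2 rose and 1 fell, against 5.16% and 4.76% of all genes, and the median was -0.002. Tagln2, a calponin family gene (0.36 ± 0.06, limma adjusted p = 0.00969), and Actg2, a smooth muscle actin gene (0.26 ± 0.07, adjusted p = 0.0485), rose. Filip1l (-0.24 ± 0.06, adjusted p = 0.0473) fell. The filamin gene Flna (0.18 ± 0.05), Fhl1 (-0.18 ± 0.05) and Cnn1 (0.16 ± 0.05) had adjusted p-values of 0.0550, 0.0605 and 0.0849. The fall was called in 1 case of 6, when HET 2 was dropped, and 1 rise was left in each of the 6 cases.

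**Figure D5:**
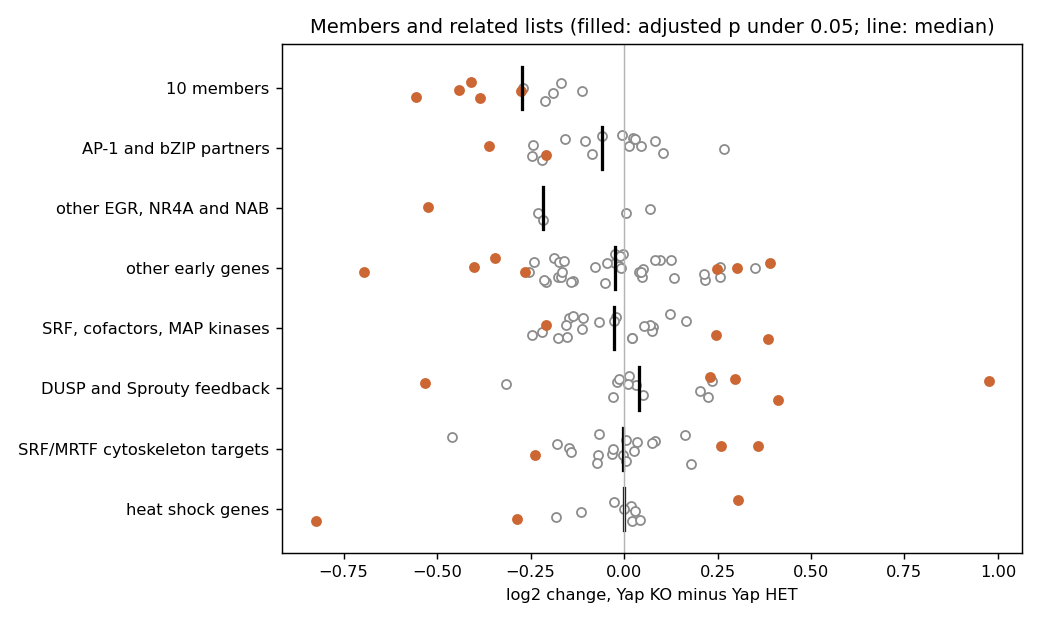
Log2 change (Yap KO minus Yap HET) of every tested gene of the 10 members and of 7 related lists, with genes at a limma adjusted p under 0.05 filled and each list's median as a black line. The members have a median of -0.27 with every point below 0, and the related lists have medians between -0.22 and 0.04 with points on both sides of 0.

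Heat shock genes, which dissociation also induces, moved both ways. Of 11 tested, 2 fell and 1 rose, against 4.76% and 5.16% of all genes, with a median of 0.001. Hspa1a, an inducible HSP70 gene, read 588, 543 and 405 on HET 1 to 3 and 287, 337 and 241 on KO 1 to 3, with no overlap and a log2 change of -0.82 ± 0.16 (limma adjusted p = 0.0201). Its near-identical copy Hspa1b had no probe set of its own symbol, so this value is uncertain. Hspb1 (-0.29 ± 0.07, adjusted p = 0.0393) fell and the cochaperone gene Dnajb4 (0.31 ± 0.06, adjusted p = 0.0185) rose. Dnajb1 (-0.18 ± 0.06), Hsph1 (-0.11 ± 0.08) and Hspe1 (0.04 ± 0.05) had adjusted p-values of 0.0837, 0.380 and 0.627. Dropping HET 1 or KO 3 left 0 of the 2 falls, dropping HET 2, HET 3 or KO 2 left 1, and dropping HET 3 or KO 2 ended the rise. The part of tissue handling in the lower level of the members was not tested.

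Markers of other cell types moved as well. For all marker lists, here and below, the shares over all genes were 4.76% lower and 5.16% higher. Before adjustment they were 14.4% and 13.9% (limma, unadjusted p under 0.05). The summed intensity of 15 cardiomyocyte markers was 104761 to 106161 on HET 1 to 3 and 104076 to 106926 on KO 1 to 3, and 1 of the 15 changed, Nppa (0.19 ± 0.05, limma adjusted p = 0.0488), a call lost whichever array was left out. Of 10 tested mesenchymal and fibroblast markers 4 rose and 0 fell, with 6 higher and 0 lower before adjustment and a median of 0.38. The summed intensity of the list was 11350 to 11710 in Yap HET and 12431 to 14386 in Yap KO cells. Pdgfra rose by 0.98 ± 0.10 (limma adjusted p = 0.00238), Pdgfrb by 0.73 ± 0.08 (adjusted p = 0.00341) and Postn by 0.72 ± 0.13 (adjusted p = 0.0137). Dropping KO 1 made the 4 rises 7. Of 11 tested endothelial and endocardial markers 3 rose and 1 fell, with 5 higher and 1 lower before adjustment (limma, unadjusted p under 0.05). The rises were of Kdr (0.76 ± 0.05, limma adjusted p = 0.000504), Eng (0.52 ± 0.08, adjusted p = 0.0113) and Nfatc1 (0.31 ± 0.08, adjusted p = 0.0445). Without HET 2, HET 3 or KO 2, 2 rises were called. The sums of the list were 1912 to 2015 in Yap HET and 2197 to 2421 in Yap KO cells. Pecam1 was near the filter level of 85.7 in both groups (82.5 ± 7.27 and 90.6 ± 8.85). The fall, of Npr3 (-0.34 ± 0.06, limma adjusted p = 0.012), was lost without HET 1.

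Epicardial markers had sums of 3652 to 4361 in Yap HET and 2657 to 3783 in Yap KO cells, and 1 of 8, Tcf21, rose. Tcf21 was also listed with the mesenchymal and fibroblast markers and is among their rises. Of the 8, 6 had a negative change, as did 55.0% of all genes. Before adjustment 4 were lower and 1 was higher (limma, unadjusted p under 0.05), against 14.4% and 13.9% of all genes. With no overlap of the groups 4 lay lower, an ordering that 17.2% of all genes showed. The median of -0.26 was close to the -0.27 of the members. None of the 6 passed the test, with Upk3b at -0.68 ± 0.19 (limma adjusted p = 0.0606), Msln at -0.30 ± 0.09 (adjusted p = 0.0694), Upk1b at -0.45 ± 0.21, Tbx18 at -0.37 ± 0.14, Krt19 at -0.23 ± 0.08 and Aldh1a2 at -0.13 ± 0.22. Wt1 had 426 ± 36.9 and 442 ± 76.4. The rise of Tcf21 was lost without HET 1 or KO 3, and 1 epicardial marker fell without KO 1 or 3. Smooth muscle markers had sums of 16913 to 17462 and 15771 to 17314 with 1 rise of 8, lost without HET 1 or 3 or KO 2. Myeloid markers had sums of 2003 to 2291 and 2112 to 2268 with 1 rise of 7, that of Lyz2, lost without any array except HET 2, and 1 of them fell without HET 2 or KO 1. The other 6 had negative changes, and before adjustment (limma, unadjusted p under 0.05) the list had 3 lower and 1 higher. Cd68 had -0.72 ± 0.20 (limma adjusted p = 0.0632), Csf1r -0.21 ± 0.07 (adjusted p = 0.105) and Ptprc -0.17 ± 0.05 (adjusted p = 0.0738). Ptprc read 117 ± 4.55 and 104 ± 1.43, close to the filter level. Erythroid markers had sums over 6 genes of 456 to 837 and 571 to 2740, and of 5 tested 0 passed with limma (1 higher and 0 lower at unadjusted p under 0.05). Of the 5, 4 had a positive change and 1 a negative one. The largest had wide errors: Hbb-y at 2.89 ± 1.14 (limma adjusted p = 0.145) and Hba-x at 1.99 ± 0.89 (adjusted p = 0.189). Neural crest and neuronal markers had sums of 759 to 868 and 785 to 844 with 0 of 2 changed, also at an unadjusted limma p under 0.05, and Sox10 read 164 ± 19.7 and 163 ± 5.95. The part of these cell types in the lower level of the members was not tested.

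The genes whose pattern over the 6 arrays was most like the mean of the centred members were Ppp2r1a, Tanc1, Hspa2, Jmjd4 and Plxna1, with Pearson r of 0.9978, 0.9965, 0.9945, 0.9914 and 0.9899. The 6 arrays share the difference between the groups, so these correlations describe it together with the order of the arrays. Hspa2, an HSP70 family gene (-0.23 ± 0.06, limma adjusted p = 0.0449), Jmjd4 (-0.22 ± 0.06, adjusted p = 0.0459) and the plexin gene Plxna1 (-0.28 ± 0.05, adjusted p = 0.0167) fell. Ppp2r1a, a scaffold subunit gene of protein phosphatase 2A, had -0.05 ± 0.05 (adjusted p = 0.510) and Tanc1 -0.11 ± 0.05 (adjusted p = 0.181).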

How the data were processed

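For each of 35556 probe sets the authors deposited a linear intensity (lowest 2e-05, highest 15701). RMA is the only tool that the submitters' processing notes name, with no version and no account of the return to a linear scale. The log2 of each intensity was taken. Gene names came from the platform annotation (21789 with 1 symbol, 1621 with several, 12146 with none), and symbols were updated through Entrez identifiers for 21698 of them with a RefSeq table of GRCm38.p6. The probe set with the highest mean log2 stood for each gene, and genes below an intensity of 85.7, the 40th percentile over probe sets, were dropped. The remaining 13632 genes were tested with limma 3.58.1 in R 4.3.3 (lmFit and eBayes, 2 groups as the only term), with Benjamini-Hochberg adjustment over all of them and a threshold of 0.05. A p here rests on the spread between 3 arrays a group, which limma drew towards the spread of the other genes (3.87 prior degrees of freedom). The number of arrays limits every value. The members and lists were chosen with earlier results of these data known. Named genes were all members, Yap1, list members past the threshold with up to 3 more of smallest p, defining markers, and the 5 genes most like the members. Further epicardial, myeloid, endothelial, mesenchymal and erythroid markers were named after their values were seen. Each array was left out in turn, and 11 other settings were tried: filters, probe set rules, scalings, a pseudocount of 50, priors, array weights and the replicate number as a block. The test was first tried on simulated arrays with known changes. It recovered 22% of 50 genes changed by 0.25 on the log2 scale, 70% of 50 at 0.5 and 100% of 50 at 1 and at 2. Of its 154 calls 8 were false. The data held more calls, 649 lower and 704 higher. The adjustment depends on that number, so these shares need not carry over. A gene that did not pass may still have a change of about 0.25, or even of about 0.5.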

Additional observations from a re-analysis of the deposited data

How the results depend on the processing

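The number of immediate early transcription factors that fell was 5 and stayed between 4 and 7 over the 11 alternative settings, with 0 that rose in each. Nr4a1, Atf3, Egr2 and Fos passed in all 11, Egr1 in 8, Jun in 6, Junb in 4, and Fosb, Egr3 and Ier2 in 0. All 10 changes kept their sign in every setting and without each array. Over all genes the counts moved more: from 649 lower and 704 higher to 237 and 271 with no filter, 427 and 445 with every probe set, 1057 and 1189 with a trended robust prior, and 2579 and 2038 with array weights. Median centring gave 339 lower and 1055 higher. Of the genes tested, the lower share ran from 1.19% with no filter to 18.92% with array weights. Leaving out an array gave 206 to 597 lower and 214 to 783 higher. The cause of these shifts was not tested.

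With the replicate number as a block there were 303 lower and 395 higher genes and 4 members fell, Egr1 having an adjusted p of 0.0667. The samples share only a number: the deviations of same-numbered arrays correlated at -0.08, -0.17 and 0.12. Those of differently numbered arrays ran from -0.23 (HET 3 with KO 1) to 0.28 (HET 2 with KO 1). Values near 0 changed sign in genes outside the members: Ppp2r1a (0.011) and Tnnt2 (0.028) with median centring and Sox10 with a pseudocount of 50 (-0.0010) and array weights (-0.038). Leaving out an array gave -0.051 to 0.19 for Wt1 and -0.10 to 0.071 for Sox10.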
